A study of Mus musculus with 39 samples.

Results

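Serpins (serine protease inhibitors) were followed as a family in mouse liver. Members were genes of the RefSeq table whose symbol begins with Serpin and whose transcript has a probe on the array, matched by the RefSeq accession of the probe. Of 68 such genes in the table, 49 had a probe, out of 17016 genes tested, and a gene was read by its probe with the brightest mean liver signal. Each Serpin gene carries a letter for its clade, and the 49 genes fall into clade a (16 genes), clade b (24 genes), clades f and i (2 genes each) and clades c, d, e, g and h (1 gene each). The 19 genes without a probe comprised 13 that code for a protein and 6 pseudogenes (2 of them listed as transcribed), and they include Serpina1a, Serpina1b and Serpina1c.

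A serpin exposes a loop that resembles the substrate of a protease, and cleavage of that loop traps the protease in a covalent complex, so that each inhibitor molecule is used once. Hepatocytes secrete most plasma serpins, which restrain clotting, fibrinolysis, complement and the proteases of neutrophils, while clade b serpins lack a classical signal peptide and mostly stay inside cells. Some members inhibit no protease, such as the carriers of glucocorticoid and thyroid hormones and a collagen chaperone of the endoplasmic reticulum.

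Liver RNA came from 39 male C57BL/6J mice housed singly. By the methods they were 5 to 6 weeks old before the regimens, so they were older at collection and age differed between the collection points. Each mouse gave 1 array. AggE mice were kept in a mesh cage inside the home cage of an SJL aggressor for 6 hrs daily without food, with 3 direct contacts per session, for 5 or 10 days. Ctrl mice were handled on the same cage-in-cage and food schedule in a separate room without an aggressor, so social isolation and food deprivation were common to both. Collection was at 24 hrs post-5-day stressor (4 Ctrl, 5 AggE), 24 hrs post-10-day stressor (4 Ctrl, 5 AggE), 1.5 wks post-5-day stressor (4 Ctrl, 5 AggE) and 4 wks post-10-day stressor (6 Ctrl, 6 AggE), and all mice had met a cue of the aggressor in a partition test shortly before. Some labels name another regimen (1 day for the first AggE group, and 10 days in titles at 1.5 wks), and the mice were grouped by the sample source.

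Each array carried liver RNA in Cy-5 and a pooled mouse reference RNA in Cy-3, with no dye swap, and each value below is a log2 ratio of liver to reference after normalization. A log2 difference of 1 is therefore a 2-fold change. Genes were called where the p-value, adjusted by Benjamini-Hochberg, was at most 0.05 in 1 limma fit over all genes and groups, and a second rule asked for a 2-fold change with a p before adjustment of at most 0.05. The share of probes that Feature Extraction marked as well above background in Cy-5 was low, from 15.2% to 70.4% per array, and was 15.7% to 28.2% in AggE against 25.3% to 31.0% in Ctrl mice 24 hrs after the 5-day stressor. All 10 hepatocyte markers measured were well above background on every array. In whole liver, fewer cells of a type and less RNA per cell cannot be told apart.

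No slide at the 24 hr points carried both Ctrl and AggE mice, so slide and group cannot be told apart there. A fit with the slide as a random effect can be run, but it rests on 1 within-slide correlation (0.33) shared by all genes. It does not separate slide from group. At 4 wks, 1 AggE mouse shared a slide with 3 Ctrl mice, and at 1.5 wks 1 AggE mouse did.

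Of the 49 Serpin genes, 12 (24.5%) were well above background in Cy-5 on all 39 arrays, against 19.6% of all 17016 genes, and 11 were so on no array. Those detected throughout were Serpina1d, Serpina1e, Serpina3k, Serpina3m, Serpina6, Serpina11, Serpinc1, Serpind1, Serpinf1, Serpinf2, Serping1 and Serpinh1. Clade a contributed 6 of its 16 genes to this set, and clade b none of its 24, of which 8 were well above background on no array. Clade a lay on chromosome 12 for 15 genes, with Serpina7 on chromosome X, and clade b on chromosomes 1 and 13 with 12 genes each.

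Promoter windows are shown for 2 pairs of clade a paralogs on chromosome 12, because the windows of each pair are near copies while the members of each pair were read by separate probes and gave different values below. Windows run from 250 bases before to 50 bases after a start given in the RefSeq promoter table, in the direction of transcription, on GRCm38.p6, and for Serpina3n and Serpina3c this start lies inside the annotated gene. Capitals mark the bases that differ from the aligned partner or are absent from it, and the ends that overhang the alignment are in lower case. Serpina3n (chr12:104406458-104406757, + strand) and Serpina3c (chr12:104153823-104154122, - strand) were identical at 92.6% of 297 aligned columns, with 19 substitutions and 3 gap columns.
Serpina3n: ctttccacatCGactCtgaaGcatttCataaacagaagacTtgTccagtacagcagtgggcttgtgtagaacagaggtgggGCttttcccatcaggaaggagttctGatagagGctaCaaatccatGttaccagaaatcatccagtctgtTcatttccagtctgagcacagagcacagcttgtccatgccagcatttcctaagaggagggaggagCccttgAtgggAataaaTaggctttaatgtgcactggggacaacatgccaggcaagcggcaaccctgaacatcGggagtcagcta
Serpina3c: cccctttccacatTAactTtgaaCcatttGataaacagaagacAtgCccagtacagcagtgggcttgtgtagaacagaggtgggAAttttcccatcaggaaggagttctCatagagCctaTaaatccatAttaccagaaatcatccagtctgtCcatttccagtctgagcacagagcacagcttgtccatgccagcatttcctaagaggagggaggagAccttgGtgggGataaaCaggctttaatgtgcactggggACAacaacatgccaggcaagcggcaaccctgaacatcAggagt
Serpina1d (chr12:103773584-103773883, - strand) and Serpina1e (chr12:103956848-103957147, - strand), which encode forms of alpha-1-antitrypsin, were identical at 96.2% of 240 aligned columns, with 6 substitutions and 3 gap columns.
Serpina1d: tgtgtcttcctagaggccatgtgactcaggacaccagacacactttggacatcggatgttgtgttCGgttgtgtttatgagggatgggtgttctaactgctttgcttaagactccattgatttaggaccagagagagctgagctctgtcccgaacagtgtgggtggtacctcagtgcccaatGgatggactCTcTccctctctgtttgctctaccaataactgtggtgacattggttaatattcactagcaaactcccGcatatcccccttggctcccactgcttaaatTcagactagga
Serpina1e: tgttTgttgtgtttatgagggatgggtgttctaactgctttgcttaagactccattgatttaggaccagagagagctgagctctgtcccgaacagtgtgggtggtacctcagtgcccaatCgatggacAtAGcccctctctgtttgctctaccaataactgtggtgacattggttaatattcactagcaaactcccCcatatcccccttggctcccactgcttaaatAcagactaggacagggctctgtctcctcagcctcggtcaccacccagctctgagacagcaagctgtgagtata

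RefSeq windows were found for 41 of the 49 Serpin genes, and 5 motifs were searched on both strands without regard to overlap between motifs. TTGCNNAA, a C/EBP motif, occurred in 12 Serpin genes (29.3%), among them Serpina1d, Serpina1e and Serpinc1, against 12.2% of all 27025 genes with a window. The core promoter motif TATAAA occurred in 13 (31.7%, against 15.7%), and GTTAAT, part of the HNF1 motif, in 8 (19.5%, against 8.24%). Both occurred in Serpina3c and neither in Serpina3n, and in Serpina3c each run includes bases shown in capitals above. TTCNNNGAA, the STAT motif, occurred in 6 (14.6%, against 9.55%), and the glucocorticoid receptor motif in the window of Serpinf2 alone (2.44%, against 0.481%). A match describes the letters of the window and is not a binding site measured here.

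At 24 hrs post-5-day stressor, 3 Serpin genes were called and all 3 were higher in AggE mice, while 3.19% of all genes were called (1.61% higher, 1.58% lower). They were Serpina3n, Serpinb3c and Serpinb1b. Before adjustment, at a p of at most 0.05, Serpini2, known from pancreas, and Serpinb3a were also higher and Serpinb6b was lower, so 6 of 49 passed, where 16.6% of all genes did. The median of the 49 log2 fold changes was 0.051 with 36 genes higher, against 0.001 over all 17016 genes with 8571 higher. Over all genes, direction went with detection. Of 10266 genes well above background on all arrays of a group, 4212 were higher (median -0.037). Of the 22 such Serpin genes 15 were higher (median 0.092), and of the other 27 Serpin genes 21 were (median 0.047). Whether the family differs from equally dim genes was not tested.

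Serpina3n encodes a secreted acute phase serpin related to human alpha-1-antichymotrypsin and known to inhibit granzyme B, and it changed more than any other Serpin gene at both 24 hr points and at 4 wks. Its annotated gene lies at chr12:104406646-104414334. At 24 hrs post-5-day stressor its log2 ratios were 1.51, 0.78, 2.66 and 0.72 in the 4 Ctrl mice. In the 5 AggE mice they were 4.31, 4.10, 3.21, 4.24 and 3.25. Every AggE mouse lay above every Ctrl mouse, which was so, in either direction, for 7.37% of all genes. Means were 1.42 ± 0.90 in Ctrl (SD, n = 4) and 3.82 ± 0.55 in AggE (SD, n = 5), a log2 fold change of 2.41 (SE 0.405, 95% interval 1.58 to 3.23, 5.3-fold), with a limma Benjamini-Hochberg adjusted p of 8.06e-04. It was the only Serpin gene to pass the 2-fold rule, which 0.294% of all genes passed.

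The raw signals behind this ratio were modest. Median Cy-5 intensities of the spot, in scanner units, were 40 to 141.5 in Ctrl and 141 to 344 in AggE, while the Cy-3 reference read 46 to 72 on the Ctrl arrays and 109 to 152 on the AggE arrays, well above background on 0 of 4 and 3 of 5. The reference RNA is common to all arrays, so its channel was higher on the AggE slides as well, and the part of the slides in the difference was not tested. With Cy-5 alone the log2 fold change of Serpina3n was 1.80 (limma adjusted p = 5.87e-05), whereas the signals processed by Feature Extraction gave 0.36 (adjusted p = 0.943) and the deposited log ratios 0.43 (adjusted p = 0.974). The slide as a random effect left 2.28 (adjusted p = 0.213). Leaving out any 1 of the 9 arrays gave 2.17 to 2.82 and kept the call.

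**Figure D1:**
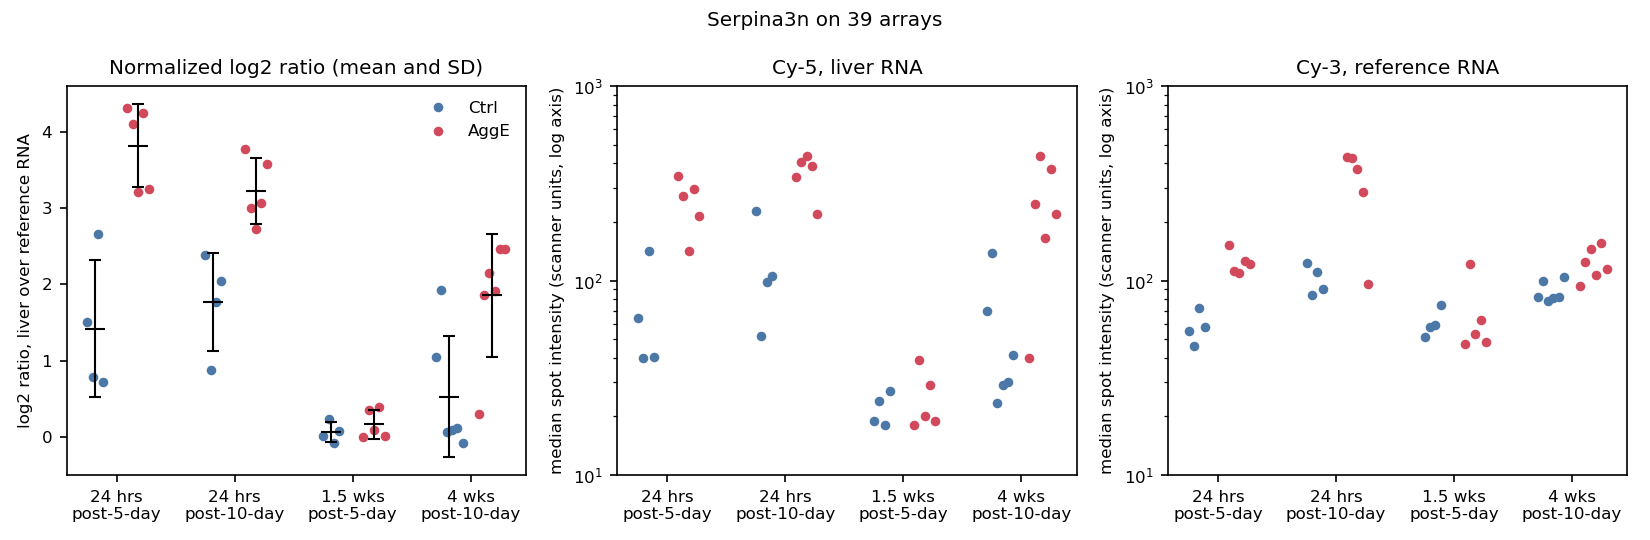
Serpina3n on each of the 39 arrays, with Ctrl in blue and AggE in red: the normalized log2 ratio of liver over reference with mean and SD (left), and the median spot intensities of Cy-5 liver RNA and Cy-3 reference RNA in scanner units on log axes (middle and right). AggE ratios at 24 hrs post-5-day stressor run from 3.21 to 4.31 against 0.72 to 2.66 in Ctrl, and values at 1.5 wks lie near 0 in both groups. The median of the reference channel is also higher on AggE arrays at both 24 hr points and at 4 wks.

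Serpinb3c, of the clade that holds the human squamous cell carcinoma antigens, had log2 ratios of 0.20, 0.15, 0.22 and -0.06 in Ctrl and 0.38, 0.37, 0.55, 0.64 and 0.57 in AggE. The groups did not overlap, and the log2 fold change was 0.38 (SE 0.076, limma adjusted p = 0.00555). Its Cy-5 spot was well above background on none of the Ctrl arrays and on 1 of the 5 AggE arrays, and no fold is given. The Cy-3 reference of the spot read 51 to 80 on the Ctrl arrays and 98 to 201.5 on the AggE arrays. Serpinb1b, related to the inhibitor of leukocyte elastase, had -0.10, -0.17, -0.14 and -0.23 in Ctrl and 0.18, 0.03, 0.07, 0.10 and 0.19 in AggE. These groups did not overlap either (log2 fold change 0.27, SE 0.07, limma adjusted p = 0.026), but the probe was well above background on none of the 9 arrays and no fold is given. The Cy-3 reference of its spot read 53 to 58 on the Ctrl arrays and 67.5 to 109.5 on the AggE arrays. A second, dimmer probe of Serpinb1b gave 0.08 (adjusted p = 0.527). Serpinb1b lost the call when any of AggE array 1 or 5 or Ctrl array 2, 3 or 4 was left out (0.249 to 0.294 over all 9). The signals processed by Feature Extraction turned both directions, to -1.30 for Serpinb3c and -0.55 for Serpinb1b, and the deposited log ratios gave -0.355 and -0.11. With the slide as a random effect, values were 0.39 for Serpinb3c (adjusted p = 0.337) and 0.26 for Serpinb1b (adjusted p = 0.524).

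Serpinb1c and Serpini2 were the other Serpin genes whose groups did not overlap at this point, with -0.31 (limma adjusted p = 0.366) and 0.16 (adjusted p = 0.167), but Serpinb1c was well above background on 1 of 9 arrays and Serpini2 on 0 of 9. Serpinb6b, a cytosolic clade b member, was at -0.515, -0.36, -0.37 and -0.425 in Ctrl and between -1.04 and -0.405 in AggE, a difference of -0.255 with an adjusted p of 0.154 (-0.32 to -0.16 with 1 array left out), and its probe was not well above background on any of the 9 arrays.

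Among the plasma serpins of the liver other than Serpina3n, none passed at 24 hrs post-5-day stressor. Serpina3c, the close paralog of Serpina3n, read 3.21, 2.44, 3.53 and 2.44 in Ctrl and 4.402, 3.95, 3.44, 3.73 and 3.47 in AggE. The difference of 0.89 for Serpina3c (SE 0.535, limma adjusted p = 0.422) was not tested against that of Serpina3n, and signal shared between probes of such near copies was not tested. Serpina3k, which binds tissue kallikrein, and Serpina3m, both neighbors of Serpina3n in the cluster, had lower means in AggE mice, by -0.33 (adjusted p = 0.677) and -0.535 (adjusted p = 0.494). Leaving out 1 array gave -0.48 to -0.10 for Serpina3k and -0.74 to -0.30 for Serpina3m, and a second probe of Serpina3k went the other way (0.18, adjusted p = 0.854). Serping1, the C1 inhibitor that restrains complement and kallikrein, differed by 0.41 (adjusted p = 0.658). The antithrombin gene Serpinc1 differed by 0.01, with an interval of -0.59 to 0.61, and a second probe gave 0.12.

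At 24 hrs post-10-day stressor no Serpin gene was called by limma after adjustment, where 0.094% of all genes were. At an unadjusted p of at most 0.05, 2 Serpin genes were higher (2.94% of all genes passed in either direction), namely Serpina3n and Serpinb10, a clade b gene well above background on none of the 9 arrays with 0.14. Serpina3n alone passed the 2-fold rule, against 0.176% of all genes. The median over the 49 genes was 0.016 with 26 higher, against -0.001 over all genes.

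Serpina3n read 2.39, 0.88, 1.77 and 2.04 in Ctrl mice at this point. AggE mice read 3.77, 3.00, 2.73, 3.07 and 3.58. All 5 AggE mice again lay above all 4 Ctrl mice (1.82% of all genes did not overlap), with a log2 fold change of 1.46 (SE 0.405, 95% interval 0.64 to 2.29, 2.76-fold, unadjusted p in the limma fit 9.65e-04, adjusted p = 0.503). Cy-5 intensities were 52 to 228 in Ctrl and 220 to 436.5 in AggE, and the reference channel read 84 to 123 and 96 to 434. Cy-5 alone gave 1.45 with an adjusted p of 0.00324, array weights gave 1.30 with 0.0473, the processed signals -0.03 and the deposited log ratios 0.07. The difference between the changes after 5 and after 10 days was 0.94 (SE 0.572, limma adjusted p = 0.847), so the larger value after 5 days did not pass as a difference between the regimens.

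Kupffer cell and macrophage markers were higher at the same point in 9 of 9 genes, with a median of 0.435, none called, and a mean over the list of 1.015 to 1.67 in Ctrl and 1.70 to 1.99 in AggE mice. Their part in the value of Serpina3n was not tested. Of 11 neutrophil markers, 10 were well above background on no array at both 24 hr points, Elane and Mpo among them, and none was called.

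The other plasma serpins gave no call at this point. Serping1 read 4.26, 4.48, 3.91 and 3.74 in Ctrl and 4.97, 4.48, 4.22, 4.74 and 4.51 in AggE. Its difference of 0.49 had an SE of 0.379 (limma adjusted p = 1), and 4 of the 5 AggE mice lay above all Ctrl mice. Serpina3c differed by 0.55, with AggE mice at 5.39, 5.44, 5.17, 5.26 and 3.72. The mouse at 3.72 was on another slide than the other AggE mice. Serpina10, the inhibitor of factor Xa that works with protein Z, differed by 0.31, where 1 Ctrl mouse at 2.24 stood above the other Ctrl mice at 0.71 to 0.85.

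At 1.5 wks post-5-day stressor no Serpin gene and no other gene was called by limma after adjustment (0% of 17016). At an unadjusted p of at most 0.05, 1 Serpin gene was higher and 1 lower, where 2.39% of all genes passed, and by the 2-fold rule 0 Serpin genes passed, where 0.0411% of all genes did.

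Serpina3n had ratios near 0 at this point, with dim spots in liver RNA (Cy-5 at 18 to 39 scanner units) and an offset of 50 added to both channels, so these ratios do not show a level equal to the reference. On the 4 arrays where Cy-5 was well above background, the processed signals of Serpina3n gave log2 ratios of 2.23 to 3.59. Ctrl mice read 0.01, 0.24, -0.08 and 0.08. AggE mice read -0.01, 0.35, 0.09, 0.385 and 0.01. The groups overlapped, the probe was well above background on 2 arrays of each group, and the difference of 0.10 had an SE of 0.405 and an interval of -0.72 to 0.92 (limma adjusted p = 1). Subtracting the change at 1.5 wks from that at 24 hrs left 2.30 (SE 0.572, unadjusted p in the limma fit 3.01e-04, adjusted p = 0.161). This difference was called with Cy-5 alone (1.74, adjusted p = 0.0245) and with array weights (2.35, adjusted p = 0.0326), and the signals processed by Feature Extraction turned it to -0.445.

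The higher gene at 1.5 wks was Serpina6, corticosteroid-binding globulin, the carrier that holds most glucocorticoid in plasma. It read 4.18, 5.04, 3.28 and 3.95 in Ctrl and 5.19, 5.39, 4.89, 4.84 and 3.85 in AggE. The groups overlapped, and the difference was 0.72 (SE 0.299, unadjusted p in the limma fit 0.0215, adjusted p = 1), with 0.44 to 1.03 when 1 array was left out. Among the mice scanned on the first day it was 0.525 with 4 AggE and 3 Ctrl mice, and 1.445 for the 1 AggE and 1 Ctrl mouse of the second day. With the slide as a fixed block it turned to -0.18, and it was -0.16 with the processed signals and -0.15 with the deposited log ratios. The lower gene was Serpina1d, of the alpha-1-antitrypsin group that restrains neutrophil elastase. It read 7.51, 6.295, 8.44 and 7.265 in Ctrl and 6.67, 7.07, 5.95, 6.32 and 7.18 in AggE, a difference of -0.74 (SE 0.34, unadjusted p in the limma fit 0.0364, adjusted p = 1), with -0.89 and -0.20 on the 2 scan days and -1.10 to -0.39 when 1 array was left out. For Serpina1d, Cy-5 alone gave -0.04, the slide as a fixed block -0.16 and the processed signals -0.29. Its near copy Serpina1e differed by -0.06.

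Serpinb3c was well above background on none of the 9 arrays at 1.5 wks, where its groups did not overlap in the other direction, with a log2 difference of -0.15 (0.823% of all genes did not overlap). Its changes at the 2 times differed by 0.52 (SE 0.108, limma adjusted p = 0.0418), and this was the only Serpin gene called in that difference, where 0.106% of all genes were. It lost the call in 14 of 18 fits that each left out 1 array, and with the slide as a random effect (0.54, adjusted p = 0.606). No Serpin gene was called in the difference between the regimens at 24 hrs (0.0353% of all genes) or between 24 hrs and 4 wks after 10 days (0.0764%). Before adjustment, the limma fit had 4 Serpin genes at or under 0.05 in the first difference (Serpinb1b, Serpinb3a, Serpinb3c and Serpinb9, where 6.37% of all genes passed) and 2 in the second (Serpinc1 and Serpine2, where 10.1% did).

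**Figure D2:**
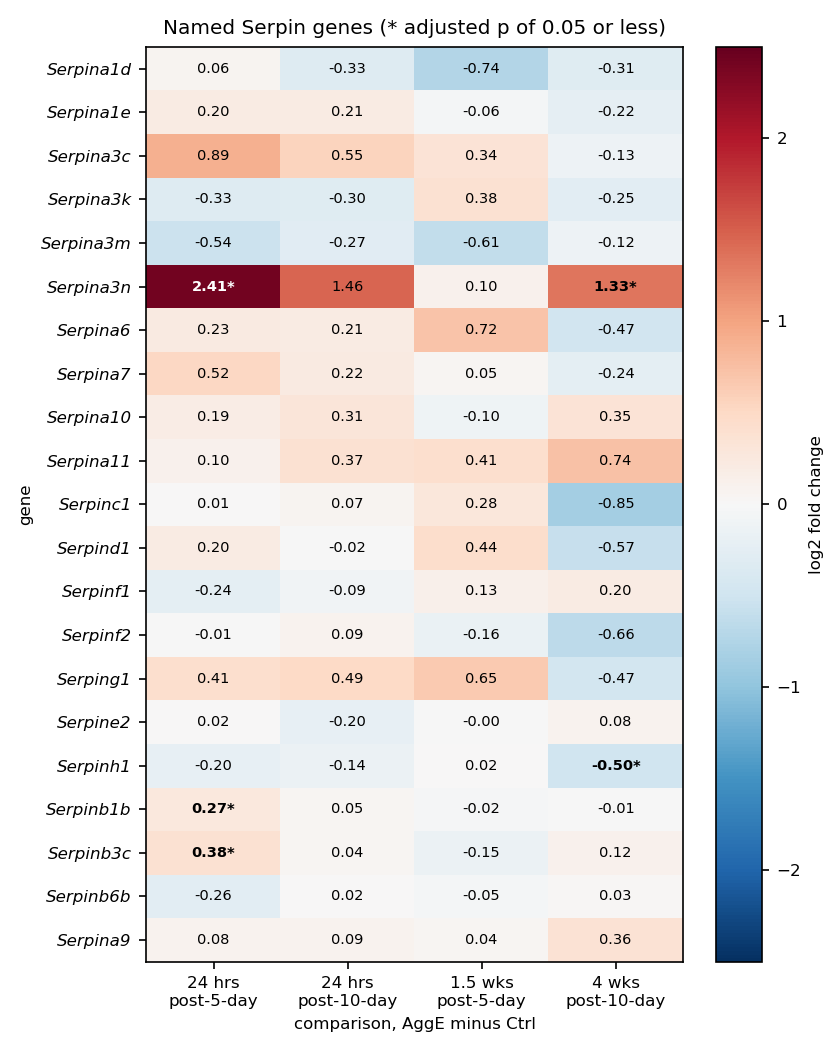
Log2 fold change, AggE minus Ctrl, of 21 named Serpin genes (rows) in the 4 comparisons (columns), with red for higher and blue for lower in AggE and an asterisk at an adjusted p of 0.05 or less. Serpina3n carries the largest value in the first column (2.41), and the fourth column holds lower values for Serpinc1, Serpind1, Serpinf2, Serping1 and Serpina6.

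At 4 wks post-10-day stressor 1 Serpin gene was called higher and 1 lower in AggE mice, where 4.2% of all genes were called (1.42% higher, 2.78% lower). Serpina3n was the higher gene and Serpinh1 the lower one. At an unadjusted p of at most 0.05 Serpina9 was also higher and Serpinc1 also lower, so 4 of 49 passed, where 22.7% of all genes did. The median over the 49 genes was 0.004, against 0.007 over all genes.

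Serpina3n read 1.05, 1.92, 0.07, 0.09, 0.11 and -0.08 in the 6 Ctrl mice. The 6 AggE mice read 0.30, 1.87, 2.15, 1.91, 2.46 and 2.47. The groups overlapped, since 2 Ctrl mice stood above the other 4 and 1 AggE mouse, at 0.30, lay below those 2 and above the 4 low ones. Means were 0.53 ± 0.80 in Ctrl and 1.86 ± 0.81 in AggE (SD, n = 6 each), a log2 fold change of 1.33 (SE 0.348, 95% interval 0.63 to 2.04, limma adjusted p = 0.0308), with the probe well above background on 3 of 6 Ctrl and 5 of 6 AggE arrays, and it was the only Serpin gene past the 2-fold rule (0.3% of all genes).

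Of the 4 low Ctrl mice, 3 were on 1 slide, and the other (Ctrl mouse 3, at 0.07) was on the slide of the 2 higher ones. The 3 Ctrl mice of 1 slide lay -0.975 from the 3 of the other on the log2 scale, and the AggE mouse at 0.30 shared the slide of the 3 low Ctrl mice, where it differed from their mean by 0.26. With the slide as a fixed block the change of Serpina3n was 0.45 (adjusted p = 0.709), as a random effect 1.02 (adjusted p = 0.221), and with Cy-5 alone 0.76 (adjusted p = 0.142). Leaving out 1 array at a time gave 1.21 to 1.645, and the call was lost for 8 of 12 arrays, with an adjusted p of 0.0833 without AggE array 3 and 0.0791 without Ctrl array 3.

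Serpinh1 encodes HSP47, the chaperone of collagen in the endoplasmic reticulum, and inhibits no protease. Its log2 ratios ran from -2.90 to -2.38 in Ctrl (mean -2.66 ± 0.18) and from -3.43 to -2.90 in AggE (mean -3.16 ± 0.21). Each AggE mouse lay below each Ctrl mouse, although the nearest values were close, and 1.75% of all genes did not overlap. The difference in log2 ratio was -0.50 (SE 0.13, interval -0.76 to -0.23, 1.41-fold lower, limma adjusted p = 0.0309). It was -0.67 for AggE mouse 1, which shared a slide with 3 Ctrl mice. On that array 44.6% of 3339 genes lay below every Ctrl mouse. The slide as a fixed block left -0.49 (adjusted p = 0.153), Cy-5 alone -0.315 (adjusted p = 0.257), and leaving out 1 array -0.55 to -0.44, called in 7 of 12 fits, with the call lost without AggE array 2 or 3 or Ctrl array 3, 4 or 5. Before normalization, Cy-5 intensities of the Serpinh1 spot were 153 to 639.5 in Ctrl (median 262.8) and 180.5 to 416.5 in AggE (median 282.8). The Cy-3 reference was far brighter, at 13580 to 15970 and 12420 to 16950. Of the 10 stellate cell and fibroblast markers, which include collagen genes, 5 were higher and 5 lower with a median of -0.02, and the mean over the list was -1.30 to -0.965 in Ctrl and -1.325 to -0.98 in AggE mice. None of these markers was called.

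Serpinc1, Serpind1 and Serpinf2, which inhibit clotting or fibrinolysis, had lower means at 4 wks, none of them called, while Serpina10 (0.35), Serpina5 (0.09) and Serpine2 (0.08) had higher ones. Serpinc1, antithrombin, ran from 7.76 to 8.79 in Ctrl (mean 8.36 ± 0.36). The AggE mice read 6.66, 6.73, 7.03, 8.25, 8.04 and 8.35. AggE mice 1, 2 and 3 lay below all Ctrl mice and the other 3 within their range, and the difference was -0.85 (SE 0.255, limma adjusted p = 0.0543). A second probe of Serpinc1 gave -0.305 (adjusted p = 0.623) and Cy-5 alone -0.05, while Serpinc1 was called in 7 of 27 other settings, namely without normalization between arrays, with Aquantile, with only probes well above background and in 4 of 12 fits that left out 1 array (lowest adjusted p 0.0222). Serpind1, heparin cofactor II, which inhibits thrombin, ran from 4.43 to 5.51 in Ctrl and read 3.81, 3.77, 4.08, 4.85, 4.63 and 5.15 in AggE (difference -0.57, adjusted p = 0.252). Serpinf2, alpha-2-antiplasmin, ran from 5.55 to 6.59 in Ctrl and read 4.29, 4.42, 5.07, 6.05, 5.85 and 5.845 in AggE (difference -0.66, adjusted p = 0.327). In both, the same 3 AggE mice were the lowest.

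AggE mice 1, 2 and 3 were also the lowest for the C1 inhibitor gene, whereas for the carrier of glucocorticoids mouse 5 lay below mouse 3. Serping1 ran from 3.58 to 4.54 in Ctrl and read 3.09, 2.975, 3.57, 4.45, 4.16 and 4.76 in AggE (difference -0.465, limma adjusted p = 0.442). Serpina6 was tight in Ctrl, from 4.21 to 4.41, and read 3.20, 3.35, 3.93, 4.48, 3.83 and 4.27 in AggE (difference -0.475, adjusted p = 0.293). AggE mouse 1, the one that shared a slide with 3 Ctrl mice, differed from their mean by -1.79 in Serpinc1, -1.16 in Serpina6 and -1.39 in Serping1. It is 1 of the 3 low mice, and on its array 44.6% of 3339 genes lay below every Ctrl mouse. With Cy-5 alone the direction turned for Serping1 (0.255) and Serpina6 (0.181), Serpinf2 stood at 0.001 and Serpind1 at -0.07.

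Across the 12 Serpin genes well above background on all arrays, AggE mice 1, 2 and 3 lay below every Ctrl mouse in 8, 9 and 7 genes. AggE mice 4, 5 and 6 did so in 1, 3 and 1 genes. Over the 3339 genes well above background on all arrays, the shares below every Ctrl mouse were 44.6%, 32.2% and 31.7% in the first 3 mice and 17%, 19.7% and 17.1% in the other 3. The mean over 10 hepatocyte markers was 4.89, 4.74 and 5.175 in the first 3 and 6.00, 5.72 and 5.93 in the other 3, with 5.425 to 6.01 in Ctrl mice, and its part in the Serpin values was not tested. Of these markers 9 of 10 had a lower mean in AggE mice (median -0.29), Fabp1 was called lower (-0.996, adjusted p = 0.0498) and Ass1 higher (1.24, adjusted p = 0.0439).

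The 12 genes had a median of -0.39 at 4 wks with 10 lower, after 0.036, 0.028 and 0.206 at the other points in the order above. With Cy-5 alone the median of the 12 genes was 0.09 with 5 lower, with the processed signals -0.16 with 9 lower, with the deposited log ratios -0.19 with 9 lower, and without normalization between arrays -0.88 with 11 lower.

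**Figure D3:**
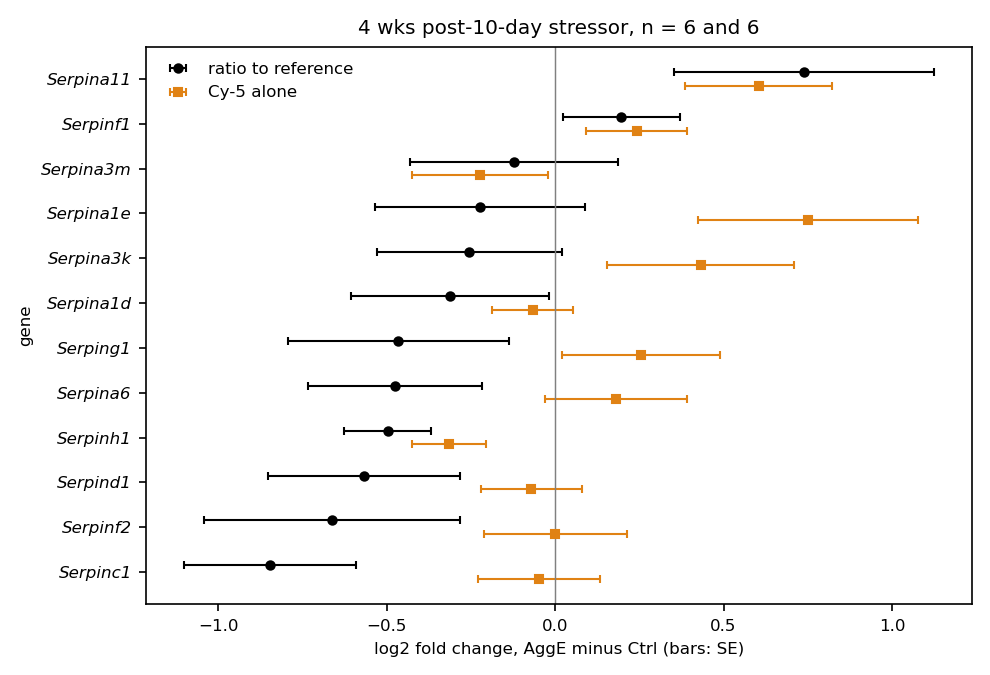
Log2 fold change, AggE minus Ctrl, with SE at 4 wks post-10-day stressor (6 mice each) for the 12 Serpin genes well above background on all arrays, as the normalized ratio to reference (black circles) and from Cy-5 alone (orange squares). By ratio 10 of the 12 genes lie below 0, by Cy-5 alone 5 do, and Serpinh1 is negative in both.

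Serpina11 had a higher mean in AggE mice, with 2.99, 3.04, 0.83, 1.55, 1.47 and 1.00 in Ctrl and 0.99, 2.19, 2.60, 3.12, 3.065 and 3.34 in AggE (difference 0.74, SE 0.386, limma adjusted p = 0.272). The lowest AggE mouse shared the slide of the 3 Ctrl mice at 1.00 to 1.55, and with the slide as a fixed block the direction of Serpina11 turned (-0.41). Serpinf1, or PEDF, an antiangiogenic serpin without protease inhibition, differed by 0.20 by its brighter probe and by 0.60 by a second probe (adjusted p = 0.0952). The direction of Serpinf1 turned without normalization between arrays (-0.18) and with the slide as a fixed (-0.61) or random (-0.12) block. Serpina9, known from germinal center B cells, ran from 0.20 to 0.62 in Ctrl and from 0.51 to 1.095 in AggE, a difference of 0.36 (SE 0.132, unadjusted p in the limma fit 0.0106, adjusted p = 0.112). Serpina7, thyroxine-binding globulin, stood at 0.06 to 0.29 in 5 Ctrl mice and at 2.48 in Ctrl mouse 4.

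By clade, the changes at 4 wks ran from -0.475 to 1.33 in clade a and from -0.66 to 0.20 in clade f. Clade a medians were 0.089, 0.102, 0.043 and -0.004 at 24 hrs post-5-day, 24 hrs post-10-day, 1.5 wks and 4 wks, with 14, 11, 11 and 7 of 16 genes higher. Of the 11 clade a genes well above background on all arrays of a group, 9, 7, 6 and 5 were higher. Clade b medians were 0.038, -0.008, -0.008 and 0.018, and no clade b gene moved by more than 0.38 in either direction in any of these comparisons. None of the clade b probes was well above background on all arrays, so these small values were measured near background and do not show that levels were equal. Clade i, with Serpini1 (neuroserpin) and Serpini2, stayed within 0.16, and Serpine2, protease nexin 1 of clade e, ran from -0.205 to 0.082.

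**Figure D4:**
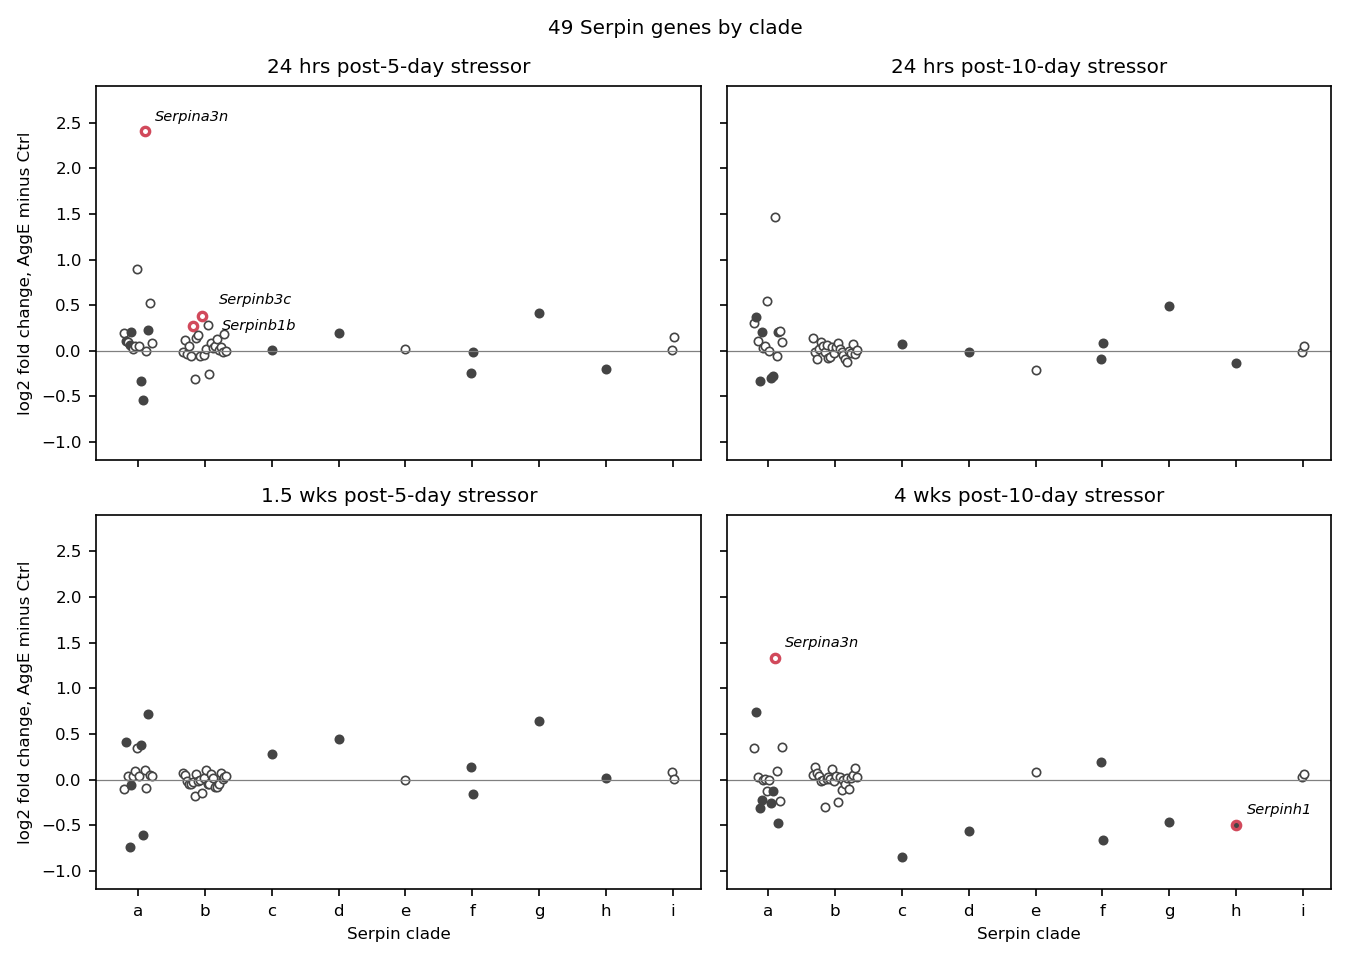
Log2 fold change, AggE minus Ctrl, of the 49 Serpin genes by clade in the 4 comparisons. Filled circles mark the 12 genes well above background on all arrays, open circles the others, and red rings the genes called at an adjusted p of 0.05 or less; Serpina3n stands above the other clade a genes at both 24 hr points and at 4 wks, and clades c, d, g and h lie below 0 at 4 wks.

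The proteases that serpins restrain gave few calls. Of 11 measured proteases of leukocytes and lysosomes, 2 were called at 24 hrs post-5-day stressor and both were higher (1.61% of all genes were called higher). Ctsl, cathepsin L, ran from -1.77 to -1.202 in Ctrl and from -1.175 to -0.195 in AggE (log2 fold change 0.76, SE 0.215, limma adjusted p = 0.0427). Gzma, granzyme A, differed by 0.37 (adjusted p = 0.00445) but was well above background on none of the 9 arrays. Of 12 lymphocyte markers, Gzma was the one called at that point. Cela2a of 9 pancreatic markers and Krt1 of 7 keratinocyte markers were called higher as well, both well above background on none of the 9 arrays. At 4 wks, Cd4 of the lymphocyte markers was called higher (0.205, SE 0.054, limma adjusted p = 0.0313), well above background on all 12 arrays and without overlap of the groups. Of all genes, 1.42% were called higher at that point and 1.75% did not overlap.

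Of 17 proteases of coagulation, fibrinolysis, kinin and complement, 14 had lower means at 4 wks (median -0.498, against 0.007 over all genes). Plg, plasminogen, the precursor of the protease that Serpinf2 inhibits, was the one called (2.78% of all genes were called lower), from 6.27 to 7.19 in Ctrl and 5.43 to 6.55 in AggE (log2 fold change -0.71, SE 0.206, limma adjusted p = 0.0479). At this point 9 of 10 hepatocyte markers also had lower means (median -0.29), and their part in these values was not tested. At the other points the list had medians of -0.224, 0.019 and 0.029 and no call.

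Among 21 other protease inhibitors of liver and plasma none was called at any point, with medians of 0.152, 0.040, 0.041 and -0.045. Itih3, a heavy chain of inter-alpha-trypsin inhibitor, passed only the 2-fold rule at 24 hrs post-5-day stressor, with 6.35 to 7.15 in Ctrl and 6.94 to 8.67 in AggE (1.30, adjusted p = 0.0674). Of 13 receptors, cofactors and cargo partners none was called either. Ttr, which carries thyroid hormone beside Serpina7, passed the 2-fold rule at 24 hrs post-5-day stressor (1.03, adjusted p = 0.163), and Hsd11b1, which regenerates the glucocorticoid that Serpina6 carries, at 1.5 wks (1.13, SE 0.36, adjusted p = 1). Of 11 regulators of acute phase transcription none was called, with medians of -0.031, 0.057, -0.028 and -0.214, the last with 9 of 11 lower.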

How the data were processed

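Liver RNA (Cy-5) of 39 mice was hybridized against a reference RNA (Cy-3) on 1 dual dye Agilent array per mouse. The authors deposited, per spot and channel, median intensities of the spot and its local background and, as further intensities, signals that Feature Extraction had background-corrected and dye-normalized. Feature Extraction also turned the processed signals into log10 ratios, which the authors deposited per array and again in the series table. Feature Extraction is version 11.5.1.1 in the submitters' processing notes, and the methods name an earlier one. From the deposited median intensities, log2 ratios were computed here: normexp with an offset of 50, outlier spots set to missing (0.295% to 1.46% per array), loess within and quantile normalization between arrays, and spots averaged per probe, with limma 3.58.1 and statmod 1.5.0 in R 4.3.3. Controls were dropped, no array was a copy of another (correlations 0.691 to 0.985), and no Cy-5 spot was saturated.

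Probes with a RefSeq accession were named through a RefSeq table (GRCm38.p6), which left 24375 probes of 17016 genes. One limma fit held 8 group means, and p-values were adjusted (Benjamini-Hochberg) over all 24375 probes. Each gene was read by its brightest probe. The array number limits precision, and groups share 1 spread. The scripts were tested on simulated data. Named genes were every probed gene of a list of plasma serpins, every other Serpin gene called in any comparison or difference, up to 3 rises and 3 falls per comparison at an unadjusted p of 0.05 or less among Serpin genes well above background, and up to 3 called genes per companion list. Others were named after their values were seen. Members, gene lists and tests were chosen with earlier results of these data known. The lists are those given with counts in the results, plus markers of endothelial cells (8 genes) and of platelets (6 genes), of which none was called at any point.

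Alternatives were no background correction, processed signals, an offset of 16, Aquantile, ratios left unscaled between arrays, Cy-5 alone, the deposited log ratios, only probes well above background, all probes, the mean over the probes of a gene, only the groups of a comparison, array weights, slide as a fixed or random block, a replicate block, and each array left out. A scan-day block and the first scan day alone were added after seeing the data. Promoter windows came from RefSeq, and proteins were not analysed here. One gene of the family is not reported here and was left out of all counts over the family.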

Additional observations from a re-analysis of the deposited data

Results flagged for a closer look

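In groups of 4 to 6 mice, the named Serpin genes were examined for a mouse far from the rest of its group (a gap to the nearest value that is large against the range of the group, Dixon's test). Of 168 gene and group pairs, 17 held such a mouse, and chance gives about 1 in 20.

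Ctrl mouse 1 at 24 hrs post-10-day stressor stood high in 3 genes, at 0.435 in Serpina7 (others 0.197 to 0.213), 2.237 in Serpina10 (others 0.713 to 0.851) and 3.229 in Serpina11 (others 2.643 to 2.737). Ctrl mouse 2 of that point was low in Serpinb1b at -0.29 (others -0.113 to -0.091). AggE mouse 1 of that point was high in Serpinc1 at 9.092 (others 7.651 to 8.032). AggE mouse 5 was low in Serpina3c at 3.718 (others 5.173 to 5.44) and in Serpinb6b at -0.589 (others -0.282 to -0.184), and its array was on another slide than the other 4.

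At 24 hrs post-5-day stressor, Ctrl mouse 2 was high in Serpina3k at 9.218 (others 8.669 to 8.754) and in Serpina6 at 5.048 (others 4.386 to 4.453). AggE mouse 1 was high in Serpine2 at 0.28 (others -0.027 to 0.053). At 1.5 wks, Serpina10 stood high in AggE mouse 2 at 0.432 (others 0.121 to 0.192) and in Ctrl mouse 4 at 0.624 (others 0.201 to 0.225), the 2 mice of that point whose arrays were scanned on the second day.

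At 4 wks, Ctrl mouse 4 stood high in Serpina7 at 2.48 (others 0.056 to 0.288). Ctrl mouse 3 was low in Serping1 at 3.584 (others 4.245 to 4.537), and Ctrl mouse 6 in Serpinb6b at -0.546 (others -0.153 to -0.016). AggE mouse 1, the one on a slide with Ctrl mice, was low in Serpina3n at 0.297 (others 1.867 to 2.466) and high in Serpinb3c at 0.363 (others 0.026 to 0.15).

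The change of Serpinb3c after the 5-day stressor differed between 24 hrs and 1.5 wks by 0.523 on the log2 scale (limma interaction, adjusted p = 0.0418), with its probe not well above background on most arrays.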

How the results depend on the processing

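The number of Serpin genes called at an adjusted p of 0.05 or less moved with the signal, the normalization and the model. From 3 at 24 hrs post-5-day stressor it became 6 without background correction, 5 with Cy-5 alone, 4 with an offset of 16, 2 with the mean over the probes of a gene, 1 with the deposited log ratios, only probes well above background or the replicate block, and 0 with the processed signals, no normalization between arrays, Aquantile, only the groups of the comparison or the slide as a random effect. At 24 hrs post-10-day stressor 0 became 1 with Cy-5 alone or array weights. At 4 wks 2 became 3 with only probes well above background, 1 without background correction, with an offset of 16, without normalization between arrays, with Aquantile or with the replicate block, and 0 with the processed signals, Cy-5 alone, the deposited log ratios, only the groups of the comparison or the slide as a fixed or random block. In the difference between 24 hrs and 1.5 wks, 1 became 2 with array weights and 0 in 11 other settings (it was 1 with all probes, the mean over the probes of a gene and the scan-day block, and with Cy-5 alone, where the gene was Serpina3n in place of Serpinb3c). At 1.5 wks the count was 0 in all settings.

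By the 2-fold rule, 1 at 24 hrs post-5-day stressor became 2 (processed signals) and 4 (deposited log ratios). At 24 hrs post-10-day stressor 1 became 0 without background correction, with the processed signals, an offset of 16, no normalization between arrays or Aquantile, and 2 with the deposited log ratios. At 1.5 wks 0 became 2 (processed signals) and 1 (deposited log ratios), and at 4 wks 1 became 6 without normalization between arrays or with Aquantile, 4 with the slide as a fixed block, 2 with the deposited log ratios and 0 with Cy-5 alone. Leaving out 1 array gave 2 to 3 adjusted calls at 24 hrs post-5-day stressor, 0 to 0 both at 1.5 wks and 24 hrs post-10-day stressor, 0 to 3 at 4 wks (0 without Ctrl array 3, 4 or 5 or AggE array 2 or 3, and 1 without Ctrl array 6) and 0 to 1 for the difference between 24 hrs and 1.5 wks. The 2-fold counts were 1 to 1 at both 24 hr points, 0 to 2 at 1.5 wks (2 without Ctrl array 2) and 1 to 2 at 4 wks.

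Of the values of named Serpin genes with an unadjusted p of at most 0.05 in a comparison or difference, under other settings, 186 kept direction and side of the threshold, 48 lost it, 9 gained it and 18 turned direction. With the processed signals these were, at 24 hrs post-5-day stressor, Serpinb3c (-1.297), Serpinb1b (-0.554) and Serpinb6b (0.234), Serpina3n at 24 hrs post-10-day stressor (-0.03), Serpina6 at 1.5 wks (-0.163), Serpinb3c (-1.172) and Serpinb1b (-1.014) in the difference between regimens, and Serpinb1b (-0.052) and Serpina3n (-0.445) in that between 24 hrs and 1.5 wks. With the deposited log ratios they were Serpinb3c (-0.355), Serpinb1b (-0.107) and Serpinb6b (0.094) at 24 hrs post-5-day stressor, Serpina6 at 1.5 wks (-0.148), Serpinb1b between regimens (-0.562) and Serpina3n between 24 hrs and 1.5 wks (-0.012). Without normalization between arrays, and with Aquantile, which leaves the ratios as they are, it was Serpinb6b at 24 hrs post-5-day stressor (0.003), and with the slide as a fixed block Serpina6 at 1.5 wks (-0.177). The cause was not tested.

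Replicate numbers did not pair the mice (correlations of same-numbered mice -0.446 to 0.499), and with a replicate block 1 Serpin gene was called both at 24 hrs post-5-day stressor and at 4 wks. A fixed slide block could not be fitted at either 24 hr point. No scaling moved the median of all genes by over 0.1. Low signal limits clade b, and 11 of 49 Serpin genes were well above background on no array.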
